A study of Mus musculus with 9 samples.

Results

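Eicosanoids are signalling lipids made from arachidonic acid, and the enzymes that make them were followed here in mouse dendritic cells given tumor-cell DNA. The 9 genes were Pla2g4a, Ptgs1, Ptgs2, Ptges, Tbxas1, Hpgds, Alox5, Alox5ap and Ltc4s, taken as all probe sets whose only gene symbol in the platform annotation is one of these names. Of the 9 genes 8 were found, with 11 of the 45101 probe sets on the array, and Ptgs1 was not analysed here. All 8 passed the filter on low signals and were among the 12586 genes tested. The cells were dendritic cells grown from bone marrow of 129/SvEv mice with GM-CSF for 9 to 12 days, and each of 3 groups had 3 arrays. In the first group, cells lacking STING, the adaptor of cytosolic DNA sensing, had taken up purified DNA from tumor cells with a lipid reagent for 7 h. The other groups were wild-type cells given the same kind of DNA for 7 h and wild-type cells left unstimulated in media. The groups are called STING knockout with tumor DNA, WT with tumor DNA and WT media. Arrays are numbered 1 to 3 here, with titles that hold no numeral taken as 1. Knockout cells without DNA and cells with reagent only are not among the 9 arrays, so effects of DNA and of the reagent cannot be told apart. Nor can a difference of knockout from WT cells with DNA be split into genotype at rest and response to DNA. Nothing in the labels tells whether the arrays of a group stand for separate animals or cultures. The p-values thus cover the spread among these samples alone, and that spread may be technical. A bulk culture does not tell fewer cells of a type from less RNA per cell.

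As background, a phospholipase frees arachidonic acid from membranes, and the acid then enters one of several branches. Cyclooxygenases (Ptgs1 and Ptgs2) turn it into prostaglandin H2, from which terminal synthases make prostaglandin E2 (Ptges), thromboxane A2 (Tbxas1) or prostaglandin D2 (Hpgds). 5-lipoxygenase (Alox5) and its helper Alox5ap open the leukotriene branch, in which Ltc4s makes leukotriene C4. Myeloid cells such as dendritic cells and macrophages use both branches, and prostaglandin E2 acts on dendritic cell maturation and migration.

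Sting1 itself read 246, 336 and 327 units in the STING knockout with tumor DNA, 2258, 1061 and 1158 in WT with tumor DNA, and 1524, 1081 and 646 in WT media. The knockout arrays lay below all WT arrays, with a log2 difference of -2.17 ± 0.35 from WT with DNA (SE, n = 3 per group, limma adjusted p = 0.0016). How its probes lie relative to the mutation was not examined. Among dendritic cell and macrophage markers, Itgax stood at or above the 95.5 percentile and Cd74 at or above the 99.4 percentile of every array, while Flt3 never exceeded the 47.8 percentile. Csf1r, Lyz2, H2-Ab1, Cd68 and Adgre1 stood at or above the 99.5, 99.3, 98.6, 97.8 and 93.8 percentiles. Ccr7 and Mertk stayed at or above 86.9 and 86.5, and Zbtb46 lay between 45.8 and 69.3. The median signal was 53.7 to 70.9 units per array. BioB, a control added at hybridisation, was brighter on each array numbered 1 (406 to 552 units) than on the rest (115 to 189 units).

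In WT cells Pla2g4a, Ptgs2 and Ptges rose with tumor DNA, while Tbxas1 and Alox5 fell. Ptgs2 rose by 4.01 ± 0.76 and Ptges by 2.45 ± 0.49 (log2 differences ± SE, n = 3 per group, limma adjusted p = 0.0038 and 0.0049). Pla2g4a rose by 0.82 ± 0.27, Tbxas1 fell by 1.15 ± 0.23 and Alox5 fell by 0.78 ± 0.25 on the log2 scale (limma adjusted p = 0.040, 0.0050 and 0.039). Thus 5 of the 8 genes were called at an adjusted p below 0.05, 3 higher and 2 lower. Over all 12586 genes 33.6% were called in this comparison, 9.94% higher and 23.6% lower. The groups did not overlap for 6 of the 8 genes, 3 higher and 3 lower, where 46.4% of all genes did not overlap, 15% higher and 31.4% lower. The median difference of the 8 genes was -0.51 and that of all genes was -0.20.

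With the same DNA, STING knockout cells had lower Ptgs2 and Ptges and higher Tbxas1 and Alox5 than WT cells. The log2 differences were -2.62 ± 0.76 for Ptgs2, -2.51 ± 0.49 for Ptges, 0.84 ± 0.23 for Tbxas1 and 0.76 ± 0.25 for Alox5 (SE, n = 3 per group, limma adjusted p = 0.025, 0.0042, 0.021 and 0.046). So 4 of the 8 genes were called, 2 higher and 2 lower, where 31.5% of all genes were called, 21.8% higher and 9.73% lower. The groups did not overlap for 4 of the 8 genes, where this held for 46% of all genes, 31.3% higher and 14.7% lower. This comparison shares the WT arrays with tumor DNA with the one above, so the pair of results is not independent. Between knockout cells with tumor DNA and WT cells in media, limma called 0 of the 8 genes, and 0 had an unadjusted p below 0.05, against 0.429% of all genes called. Sting1 was not called in this comparison either, at -1.72 ± 0.35 (SE, n = 3 per group, limma adjusted p = 0.094), though its groups did not overlap. A count of 0 therefore does not show equal levels. With the replicate block, a fit that takes arrays of 1 number as matched, 44.8%, 43% and 1.4% of all genes were called for WT tumor DNA against media, knockout against WT with DNA, and knockout against media, and 6, 4 and 0 of the 8. The groups did not overlap there for 1 of the 8, Ptgs2, which was higher, where 13.8% of all genes did not overlap, 5.93% higher and 7.88% lower.

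**Figure D1:**
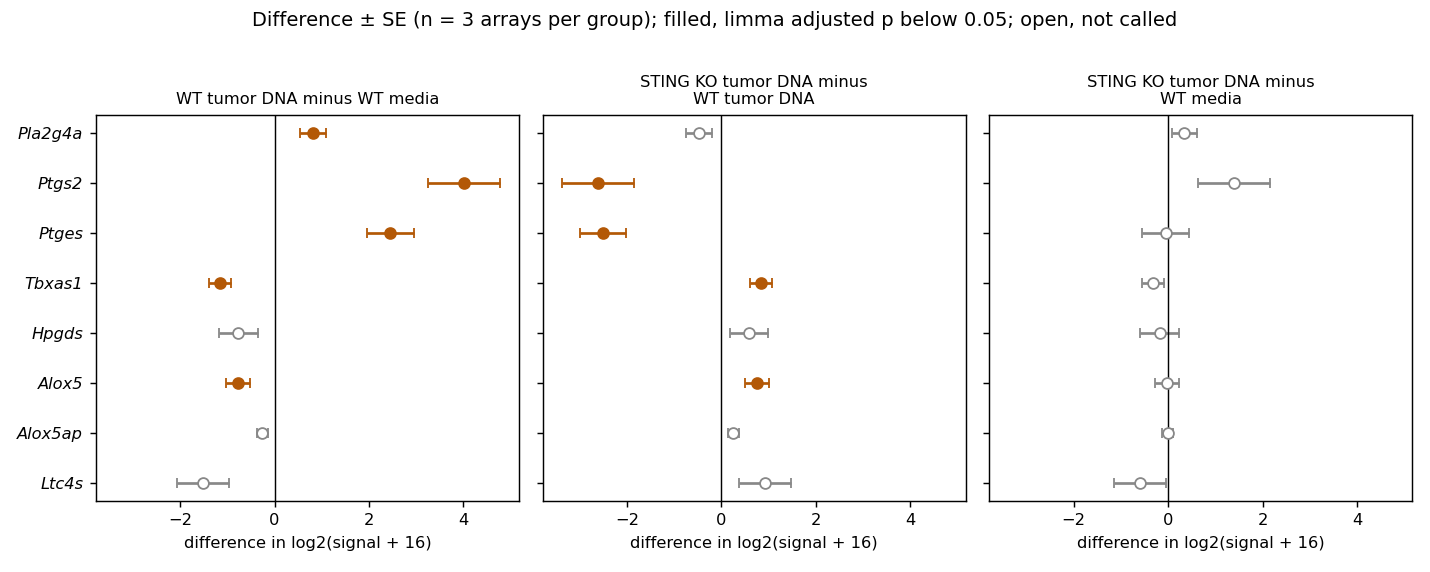
Difference in log2(signal + 16) for each of the 8 enzymes (points, with bars for ± 1 SE, n = 3 arrays per group) in 3 comparisons. Filled points passed limma's adjusted p of 0.05, and Ptgs2 at 4.01 and Ptges at 2.45 lie farthest to the right in WT cells given tumor DNA.

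Pla2g4a encodes cytosolic phospholipase A2 alpha, which frees arachidonic acid from membrane phospholipids. Its signal was 2003, 3107 and 2563 units on the STING knockout arrays with tumor DNA, 5185, 3165 and 2624 on the WT arrays with tumor DNA, and 1677, 2496 and 1865 on the WT media arrays. Every WT array with DNA lay above every media array, and WT array 1 with DNA stood far above its group. Within array numbers 1, 2 and 3 the WT difference was 1.62, 0.34 and 0.49 log2 units, so most of the mean came from number 1. The call ended without WT tumor DNA array 1 or 2, WT media array 1 or 3, or STING knockout array 3 (limma adjusted p up to 0.12), and without any one of the array numbers (up to 0.17). It also ended with no filter, median centring, no variance trend or only the 6 arrays compared (0.051 to 0.059). The knockout signals overlapped both WT groups, with a log2 difference of -0.47 ± 0.27 from WT with tumor DNA (SE, n = 3 per group, limma adjusted p = 0.21). With arrays centred on the median of the genes tested, that difference was -0.87 and called (adjusted p = 0.049). It was -0.19 without WT tumor DNA array 1 (adjusted p = 0.58), -0.31 without STING knockout array 1 (adjusted p = 0.46) and -0.03 without array number 1 (adjusted p = 0.93).

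Ptgs2 encodes cyclooxygenase 2, the inducible enzyme that makes prostaglandin H2. The brighter of its probe sets read 430, 670 and 733 units in STING knockout cells with tumor DNA, 12454, 910 and 4564 in WT cells with tumor DNA, and 357, 197 and 144 in WT media. No 2 groups overlapped: every WT array with DNA was above the knockout arrays, and every knockout array was above the media arrays. The WT rise corresponds to 16.1-fold on the log2(signal + 16) scale, and the WT arrays with DNA spread widely, at 5976 ± 5900 units (SD, n = 3). Within array numbers 1, 2 and 3 the WT difference was 5.06, 2.12 and 4.84, and the knockout differed from WT with DNA by -4.81, -0.43 and -2.61. Array number 2 therefore held the smallest Ptgs2 difference in both comparisons.

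The lower Ptgs2 of the knockout was the less firm of these results. Leaving out any single knockout array, or WT tumor DNA array 1 or 3, ended its call (limma adjusted p up to 0.073), and the log2 difference was -1.75 without WT array 1. Without WT tumor DNA array 2 the difference was -3.63. The rise in WT cells stayed called without any single array (up to 0.016) and ended only without array number 3 (0.080), among the settings that left out arrays. Against WT media the knockout differed by 1.39 ± 0.76 (SE, n = 3 per group, limma adjusted p = 0.76). Within numbers 1 to 3 the differences were 0.26, 1.69 and 2.22.

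The dimmer Ptgs2 probe set read 43.4, 129 and 67.9 units in the knockout, 1460, 79.2 and 561 in WT cells with DNA, and 53.8, 40.6 and 25.7 in media. Here the knockout and WT with DNA overlapped, since WT array 2 lay below knockout array 2. In a limma fit over all 45037 probe sets that are no controls, its WT difference was 2.98 ± 0.79 (SE, n = 3 per group, adjusted p = 0.030) and its knockout difference -2.27 ± 0.79 (adjusted p = 0.091). In that fit, 14% of probe sets were called for WT tumor DNA against media and 13.3% for knockout against WT.

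Ptges encodes microsomal prostaglandin E synthase 1, an inducible synthase that acts downstream of cyclooxygenase. The brightest of its 3 probe sets read 173, 373 and 468 units in STING knockout cells with tumor DNA, 1155, 2378 and 2299 in WT cells with tumor DNA, and 211, 685 and 233 in WT media. The WT arrays with DNA lay above all 6 others, and the knockout overlapped the media arrays. The knockout differed from WT with DNA by -2.63, -2.62 and -2.26 within numbers 1, 2 and 3, a narrower range than for Ptgs2. The WT rise was 2.37, 1.77 and 3.22 within the same numbers. Both calls stayed without any single array (limma adjusted p up to 0.020) and ended without array number 3 (0.083 for the WT rise and 0.052 for the knockout difference). Against WT media the knockout differed by -0.05 ± 0.49 (SE, n = 3 per group, limma adjusted p = 0.99), and leaving out arrays moved this value between -0.56 and 0.47.

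The other Ptges probe sets moved the same way. One of them read 98.7, 234 and 181 units in the knockout, 1390, 1370 and 1029 in WT cells with DNA, and 131, 655 and 276 in media. The dimmest read 33.8, 131 and 130 in the knockout, 574, 460 and 634 in WT cells with DNA, and 57.4, 171 and 97.5 in media. On both probe sets the WT arrays with DNA stood above all others. Their WT differences were 2.05 ± 0.47 and 2.29 ± 0.45, and their knockout differences -2.83 ± 0.47 and -2.47 ± 0.45 (SE, n = 3 per group, adjusted p from 0.0029 to 0.016 in the limma fit over all probe sets).

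**Figure D2:**
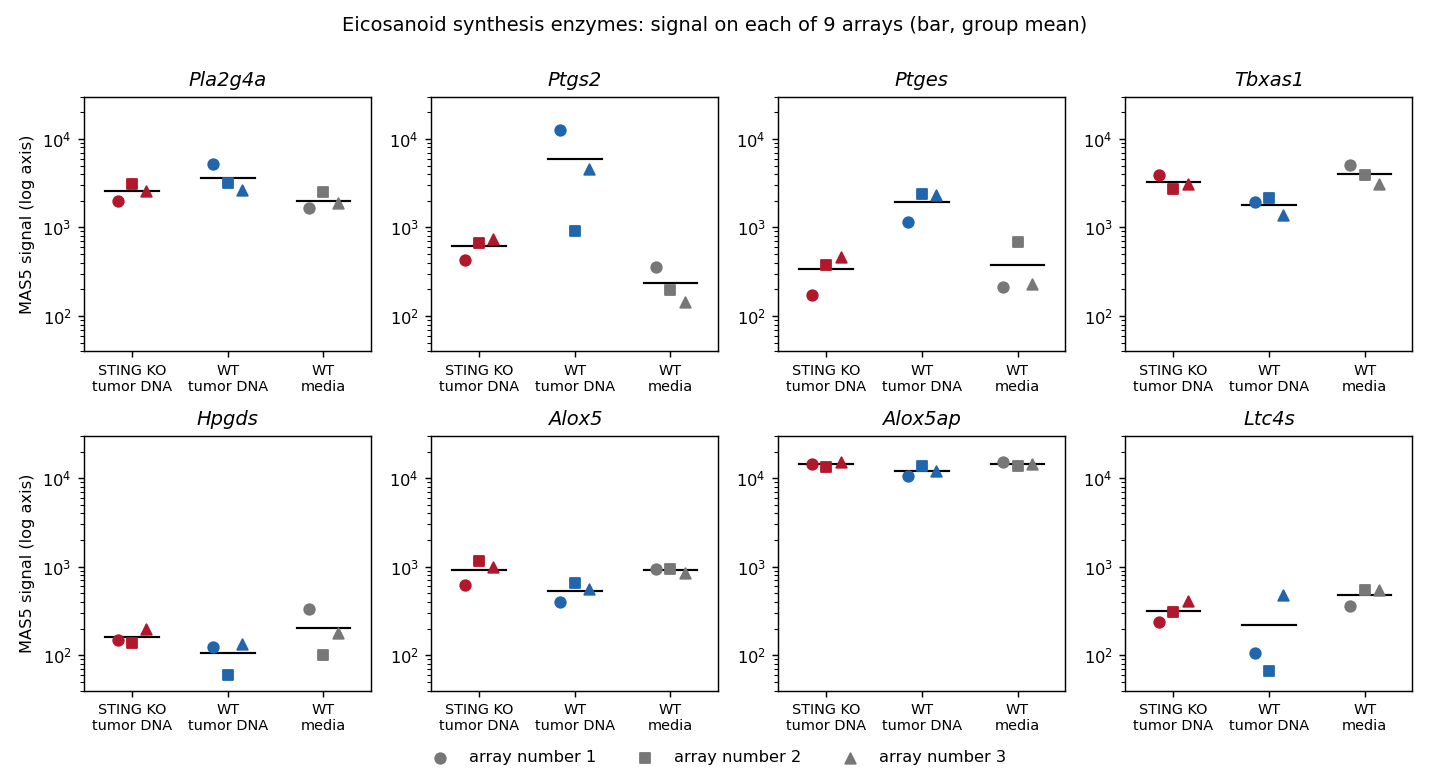
MAS5 signal of each enzyme (log axis) on the 9 arrays, by group from left to right: STING knockout with tumor DNA, WT with tumor DNA, WT media. Each point is 1 array with its shape giving the array number, bars are group means, and each gene is shown by its brightest probe set. Ptgs2 spans 910 to 12454 units among WT arrays with DNA, and Ptges 1155 to 2378.

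The promoters of the pair that rose most, Ptgs2 and Ptges, and of Tbxas1, which fell, are shown because these genes moved in opposite directions. Each window holds 250 bases before and 50 after the start site in RefSeq's GRCm38.p6, on the gene's strand, and capitals mark the motif matches. RefSeq windows matched 8 of the 9 genes by symbol.
Ptgs2 promoter, chr1:150099781-150100080, plus strand: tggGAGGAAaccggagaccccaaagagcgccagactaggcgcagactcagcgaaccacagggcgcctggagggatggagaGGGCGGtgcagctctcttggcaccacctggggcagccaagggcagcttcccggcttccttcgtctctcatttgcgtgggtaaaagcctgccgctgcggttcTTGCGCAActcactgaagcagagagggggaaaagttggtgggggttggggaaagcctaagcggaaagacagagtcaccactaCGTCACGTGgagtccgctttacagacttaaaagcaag
Ptges promoter, chr2:30903248-30903547, minus strand: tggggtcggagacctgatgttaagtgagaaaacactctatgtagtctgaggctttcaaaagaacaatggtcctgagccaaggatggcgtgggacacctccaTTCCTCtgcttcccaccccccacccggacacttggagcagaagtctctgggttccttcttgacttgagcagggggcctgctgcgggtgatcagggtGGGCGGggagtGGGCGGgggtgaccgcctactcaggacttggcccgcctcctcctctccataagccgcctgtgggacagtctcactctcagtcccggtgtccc
Tbxas1 promoter, chr6:38918736-38919035, plus strand: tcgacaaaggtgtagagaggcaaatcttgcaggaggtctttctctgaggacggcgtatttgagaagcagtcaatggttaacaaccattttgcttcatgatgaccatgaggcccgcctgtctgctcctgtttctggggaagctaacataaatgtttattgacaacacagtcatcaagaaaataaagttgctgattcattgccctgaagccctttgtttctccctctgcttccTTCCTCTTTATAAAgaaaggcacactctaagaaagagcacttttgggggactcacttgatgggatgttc
The motifs were searched on both strands over 32851 promoter windows of the same length. They were the interferon-gamma activated site TTCNNNGAA (in 8.3% of windows), the interferon-response core (3.44%), the C/EBP site TTNNGCAA (10.8%), the cAMP-response core TGACG (20.8%) and the full cAMP-response element (1.79%). The others were the E-box CACGTG (7.15%), the GC box GGGCGG (35.7%), TATAAA (13.6%), the PU.1 core GAGGAA (28.3%) and the kappaB motif (4.51%). The Ptgs2 window held a C/EBP match starting at base -69 and an E-box at base 17 that overlapped a cAMP-response core at base 14. It also held a GC box at base -170 and a PU.1 core at base -247. The Ptges window held GC boxes at bases -53 and -42 and a PU.1 core at -149. The Tbxas1 window held overlapping TATAAA matches, one on each strand, at bases -13 and -11 and a PU.1 core at -19. None of the 3 windows held a match to the interferon-response core, the interferon-gamma activated site or the kappaB motif, which says only that these letters are not in these windows.

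Tbxas1 encodes thromboxane A synthase, which turns prostaglandin H2 into thromboxane A2. Its signal was 3877, 2684 and 3105 units in STING knockout cells with tumor DNA, 1925, 2133 and 1364 in WT cells with tumor DNA, and 5133, 3892 and 3121 in WT media. WT arrays with DNA lay below all 6 others, and the knockout overlapped the media arrays. The fall in WT cells was to 0.450 times the media level on the log2(signal + 16) scale, with within-number differences of -1.41, -0.86 and -1.18. It stayed called in each of the 22 other settings tried. The knockout exceeded WT with DNA by 1.004, 0.33 and 1.18 within numbers 1, 2 and 3. That call ended without STING knockout array 1 or 3 or WT tumor DNA array 3 (limma adjusted p up to 0.071), without array number 1 or 3 (up to 0.13), and with arrays centred on the median of the genes tested (0.19).

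Hpgds encodes hematopoietic prostaglandin D synthase. It was dim, at 150, 137 and 198 units in the knockout with tumor DNA, 124, 60.4 and 135 in WT with tumor DNA, and 336, 99.6 and 179 in WT media. These signals lay between the 47.8 and 72.9 percentiles of the probe sets on their arrays. WT with DNA overlapped media, and all knockout arrays were above the WT arrays with DNA, as for 31.3% of all genes. The log2 differences did not pass the test, at -0.77 ± 0.41 for WT with DNA against media and 0.58 ± 0.41 for knockout against WT with DNA (SE, n = 3 per group, limma adjusted p = 0.17 and 0.31). The WT difference was -0.36 without WT media array 1, -1.16 without WT media array 2 (adjusted p = 0.050, not called), -0.46 without WT tumor DNA array 2 and -0.48 without array number 1. The knockout difference was 0.28 without WT tumor DNA array 2 and 0.37 without array number 2. With centring on the genes tested the differences were -0.33 and 0.19 (adjusted p = 0.57 and 0.76).

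Alox5 encodes 5-lipoxygenase, the first enzyme of leukotriene synthesis. Its only probe set read 622, 1158 and 1003 units in the knockout with tumor DNA, 396, 657 and 557 in WT with tumor DNA, and 932, 953 and 857 in WT media. WT arrays with DNA lay below all media arrays, while the knockout overlapped both groups. The knockout exceeded WT with DNA by 0.63, 0.80 and 0.83 within numbers 1, 2 and 3. Neither Alox5 call was firm: the WT fall was not called with quantile normalization (-0.53, limma adjusted p = 0.13) or with arrays centred on the median of the genes tested (-0.35, adjusted p = 0.27). It also ended without any WT media array, WT tumor DNA array 1 or 3 or knockout array 3 (adjusted p up to 0.12), and without any array number (up to 0.17). The knockout difference ended with the same scalings (0.52 and 0.36, adjusted p = 0.14 and 0.26), without any media array, WT tumor DNA array 1 or 3 or knockout array 2 or 3 (up to 0.16), and without number 2 or 3 (up to 0.25).

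Alox5ap encodes the 5-lipoxygenase activating protein, which presents arachidonic acid to 5-lipoxygenase. It was among the brightest probe sets of every array, at or above the 98 percentile, with 14604, 13360 and 15104 units in the knockout, 10675, 13665 and 11934 in WT with tumor DNA, and 15060, 13724 and 14563 in WT media. WT arrays with DNA lay below the media arrays, but array 2 by little, and the within-number differences were -0.50, -0.01 and -0.29. The WT log2 difference was -0.26 ± 0.11 (SE, n = 3 per group, limma adjusted p = 0.11). With quantile normalization it was -0.52 and called (adjusted p = 0.0089), and with centring on the genes tested its sign turned to 0.17 (adjusted p = 0.30). The knockout differed from WT with DNA by 0.25 ± 0.11 (adjusted p = 0.12), which was 0.50 with quantile normalization (adjusted p = 0.0095) and -0.15 with that centring (adjusted p = 0.38). Without WT tumor DNA array 2 both were called, at -0.35 and 0.34 (adjusted p = 0.043 and 0.049).

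Ltc4s encodes leukotriene C4 synthase, which joins leukotriene A4 to glutathione. It read 235, 308 and 408 units in the knockout, 107, 67.2 and 478 in WT with tumor DNA, and 360, 543 and 543 in WT media. WT array 3 with DNA stood in the range of the media arrays, while arrays 1 and 2 lay below all others. The WT log2 difference was -1.51 ± 0.55 (SE, n = 3 per group, limma adjusted p = 0.059), and with the replicate block it was called (adjusted p = 0.014). Without WT tumor DNA array 3 it was -2.27 (adjusted p = 0.0025) and the knockout difference 1.68 (adjusted p = 0.0055), against 0.92 ± 0.55 with all arrays (adjusted p = 0.23). Without array number 3 both were called too, at -2.18 and 1.49 (adjusted p = 0.026 and 0.045). Leaving out array 2 moved the values the other way, to -0.99 and 0.40 without WT tumor DNA array 2 (adjusted p = 0.18 and 0.60) and to -0.90 and 0.40 without array number 2 (adjusted p = 0.36 and 0.70). With centring on the genes tested the knockout difference was 0.52 (adjusted p = 0.50).

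**Figure D3:**
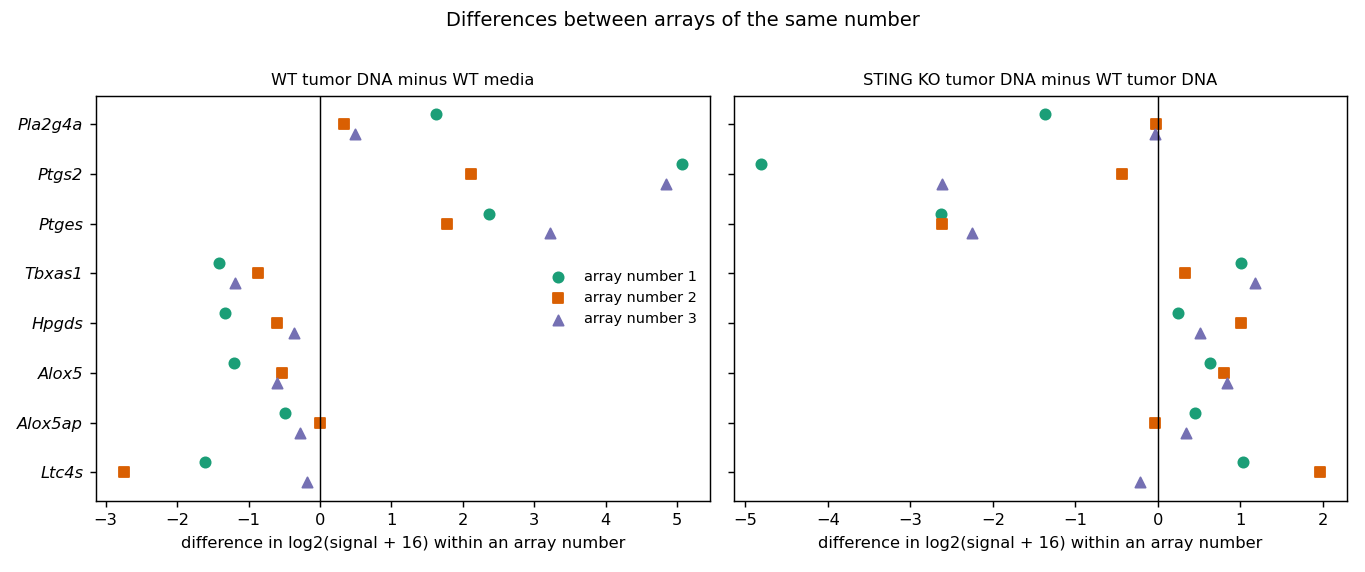
Difference in log2(signal + 16) between arrays that carry the same number, for WT tumor DNA minus WT media on the left and STING knockout minus WT with tumor DNA on the right, 1 point per array number. Ptges lies between 1.77 and 3.22 on the left and between -2.63 and -2.26 on the right, while Ptgs2 on the right runs from -4.81 to -0.43.

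Other genes of the pathway were followed in a list of 65 enzymes, transporters and receptors, of which 58 had a probe set with that single symbol and 45 passed the filter. With tumor DNA in WT cells 2 rose and 14 fell, or 35.6% of the 45, close to the 33.6% of all genes called. Centred on the genes tested, the list had 7 higher and 6 lower in this comparison, where 30.5% of all genes were called, 2759 higher and 1080 lower. The list's median was -0.23, and that of all genes was -0.20. In knockout against WT cells with DNA 13 were higher and 2 lower, or 33.3%, against 31.5% of all genes, with medians of 0.22 and 0.20. With that centring 5 were higher and 5 lower, where 28.5% of all genes were called, 1092 higher and 2492 lower. The counts by role below stand beside 9.94% of all genes called higher and 23.6% lower in WT cells, and 21.8% higher and 9.73% lower in the knockout. Between the knockout with DNA and WT media 0 of 45 were called by limma, where 0.429% of all genes were called. Of the 45, 3 had an unadjusted p below 0.05.

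Among the 15 genes of arachidonate release and reacylation, 1 rose and 5 fell in WT cells. The gene that rose was Pla2g4c, a calcium-independent cytosolic phospholipase A2, which read 35.5, 52.0 and 52.9 units in the knockout with DNA, 266, 352 and 199 in WT with DNA, and 36.7, 49.8 and 31.5 in WT media. Its WT arrays with DNA stood above all others, and the differences were 2.36 ± 0.28 in WT and -2.18 ± 0.28 for knockout against WT (SE, n = 3 per group, limma adjusted p = 0.00051 and 0.00055). The low signals make these sizes depend on the offset, 1.68 and -1.58 with an offset of 64. Another Pla2g4c probe set differed by 0.49 and -0.29, and stands for the gene with no offset, when neither call held. Acsl3 and Acsl5, synthetases that couple fatty acids to coenzyme A, fell by 1.68 ± 0.31 and 0.69 ± 0.14 in WT cells and were higher in the knockout by 1.83 ± 0.31 and 0.63 ± 0.14. Both Acsl5 calls ended without array number 2 or 3 (up to 0.075) and with centring on the genes tested (adjusted p = 0.22 and 0.27).

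The other prostanoid synthases did not follow Ptges. All 3 that passed the filter fell in WT cells: Prxl2b, which makes prostaglandin F2 alpha and related prostamides, Ptges2, a constitutive prostaglandin E synthase, and Cbr1, a carbonyl reductase that can act on prostaglandin E2. Prxl2b read 1189, 796 and 1280 units in the knockout, 279, 334 and 328 in WT with DNA, and 1511, 987 and 889 in media. Its groups separated WT with DNA from the rest, with differences of -1.76 ± 0.24 in WT and 1.72 ± 0.24 for knockout against WT (SE, n = 3 per group, limma adjusted p = 0.00097 and 0.00089). Ptges2 differed by -0.75 ± 0.19 and 0.65 ± 0.19 (adjusted p = 0.014 and 0.027), and Cbr1 by -0.95 ± 0.32 and 0.82 ± 0.32 (adjusted p for Cbr1 = 0.046 and 0.082). With the replicate block the Cbr1 knockout difference was called (adjusted p = 0.032). The Ptges2 calls ended with quantile normalization (0.083 and 0.13), with centring on the genes tested (0.20 and 0.30) and without any array number (up to 0.15 and 0.16), and the Cbr1 call in WT ended with quantile normalization (0.12) and without any media or knockout array (up to 0.11). Ptgds, another prostaglandin D synthase, did not pass the filter.

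Of the 10 other genes of the lipoxygenase and leukotriene branch, 0 rose and 1 fell in WT cells by limma. That gene was Lta4h, which hydrolyses leukotriene A4 to leukotriene B4. It read 1617, 1589 and 1300 units in the knockout with DNA, 426, 515 and 640 in WT with DNA, and 1559, 983 and 961 in WT media, so WT with DNA lay below all others. The differences were -1.11 ± 0.23 in WT and 1.50 ± 0.23 for knockout against WT (SE, n = 3 per group, limma adjusted p = 0.0055 and 0.0012), and both stayed called in each of the other 22 settings. Its other probe sets, near the filter, differed by -0.37 and -0.09 in WT. Alox15, a lipoxygenase of the lipoxin route, ranged from 4.52 to 405 units within WT with DNA and differed by -0.07 ± 1.15 (adjusted p = 0.97).

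Among inactivation and transport genes 2 of 7 fell in WT cells, or 28.6% beside the 23.6% of all genes called lower, and 3 were higher in the knockout. Ptgr2, which reduces the keto metabolites of prostaglandins, read 726, 738 and 661 units in the knockout, 196, 261 and 287 in WT with DNA, and 1084, 852 and 739 in media. WT with DNA was the lowest group without overlap, at -1.78 ± 0.20 against media, and the knockout exceeded it by 1.47 ± 0.20 (SE, n = 3 per group, limma adjusted p = 0.00042 and 0.00074). The prostaglandin exporter Abcc4 differed by -0.89 ± 0.23 and 0.67 ± 0.23 (adjusted p = 0.015 and 0.049), the second call ending with no filter (0.061), with quantile normalization (0.10), without any array number (up to 0.23) and under other settings, and the first with centring on the genes tested (0.11) and without array number 3 (0.10). The leukotriene C4 exporter Abcc1 differed by -0.06 ± 0.16 in WT, which turned to 0.37 with that centring, and was higher in the knockout by 0.71 ± 0.16 (adjusted p = 0.80 and 0.0092), a call that ended with the same centring (0.22) and without array number 2 or 3 (up to 0.12). Hpgd, which starts prostaglandin breakdown, did not pass the filter.

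Of 10 receptors 1 rose and 3 fell with tumor DNA in WT cells. Ptger4, a prostaglandin E2 receptor, read 5450, 3607 and 4245 units in the knockout, 2319, 1675 and 1816 in WT with DNA, and 4112, 4825 and 4908 in media. WT with DNA lay below all others, with differences of -1.26 ± 0.18 in WT and 1.18 ± 0.18 for the knockout (SE, n = 3 per group, limma adjusted p = 0.0013 and 0.0014), both called in the other 22 settings. Ptger2, another prostaglandin E2 receptor, differed by -1.10 ± 0.36 and 1.28 ± 0.36 (adjusted p = 0.041 and 0.024), and both calls ended with quantile normalization (0.097 and 0.054), with centring on the genes tested (0.21 and 0.12) and without array number 3 (0.21 and 0.16). The Ptger2 call in WT ended in 14 of the 22 other settings, 6 of them single arrays left out (up to 0.14), and the knockout call in 6. Its WT arrays with DNA overlapped the media arrays. The leukotriene B4 receptor Ltb4r1 differed by -1.04 ± 0.26 and 1.03 ± 0.26 (adjusted p = 0.013 and 0.014), and these calls ended with centring on the genes tested (0.082 and 0.078) and without array number 3 (0.087 and 0.11). The receptor that rose was Fpr2, a formyl peptide receptor that also binds lipoxin A4, at 0.57 ± 0.13, and it was lower in the knockout at -0.61 ± 0.13 (adjusted p = 0.010 and 0.0074). Its calls ended with quantile normalization (0.090 and 0.052) and without array number 3 (0.095 and 0.074). The prostacyclin receptor Ptgir differed by 0.34 ± 0.14 and -0.18 ± 0.14 (adjusted p = 0.080 and 0.37), and the cysteinyl leukotriene receptor Cysltr1 by -0.23 ± 0.33 and -0.21 ± 0.33 (adjusted p = 0.63 and 0.66). With centring on the genes tested the Ptgir differences were called, at 0.78 and -0.57 (adjusted p = 0.0050 and 0.021), and the Cysltr1 difference in WT turned to 0.21.

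**Figure D4:**
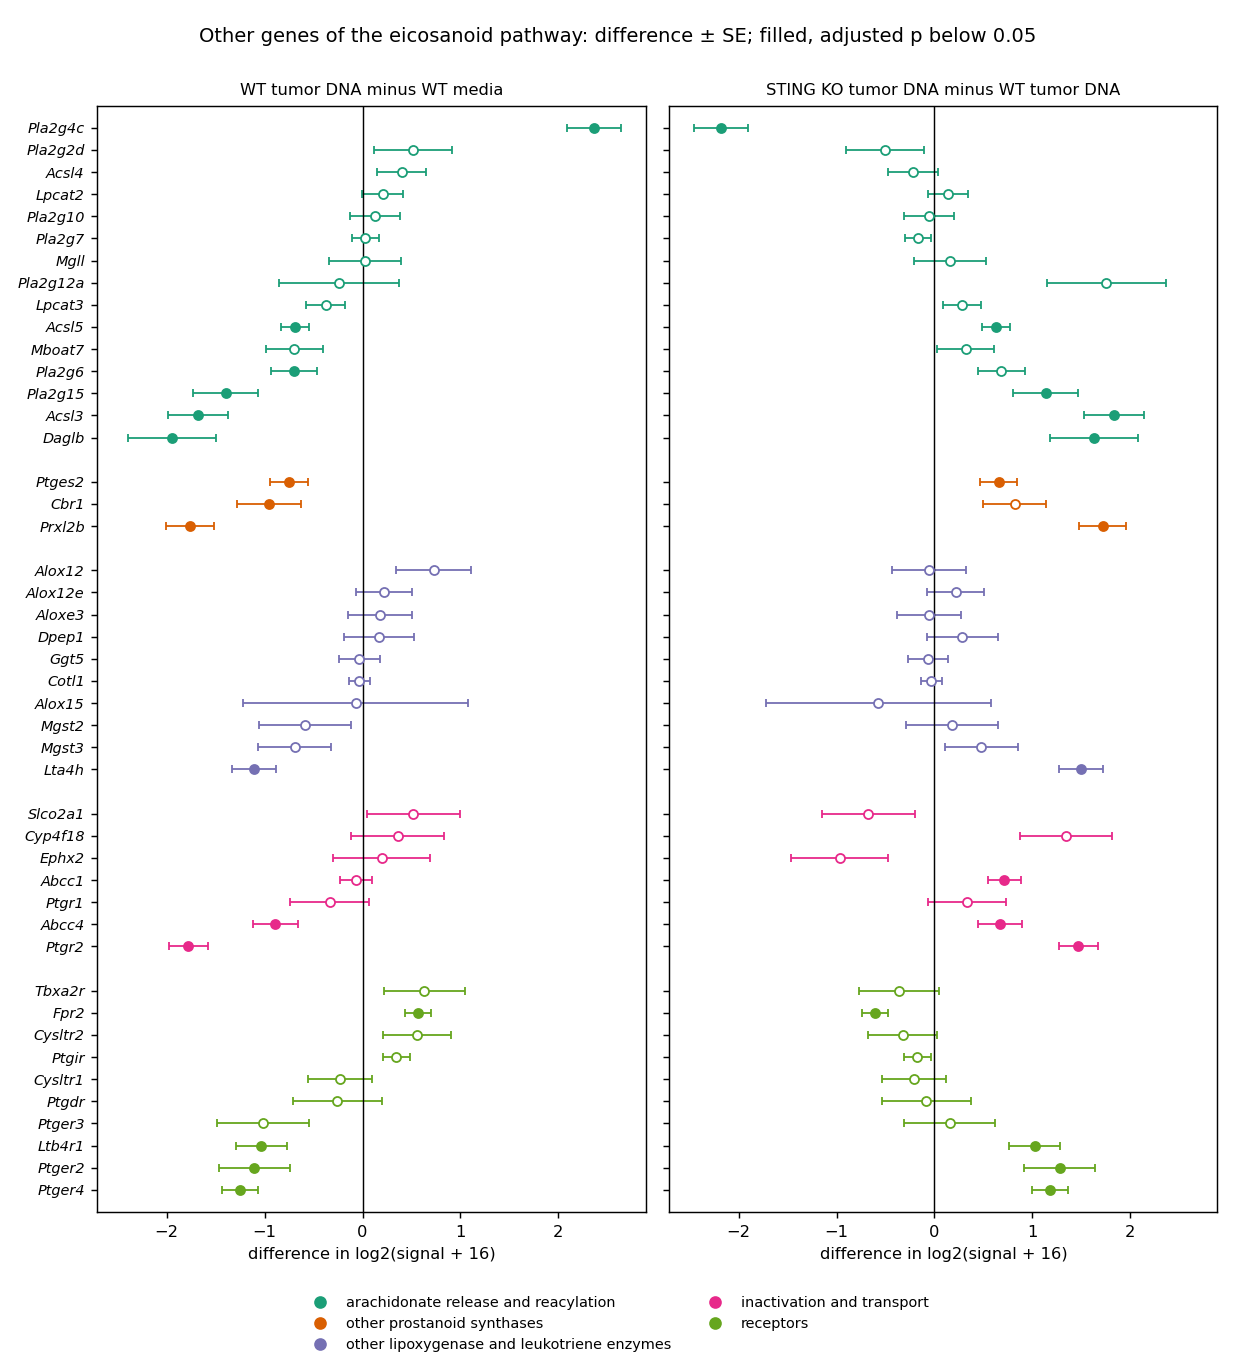
Difference in log2(signal + 16) ± SE for the 45 other pathway genes that passed the filter, grouped by role, for WT tumor DNA minus WT media on the left and STING knockout minus WT with tumor DNA on the right. Filled points passed an adjusted p of 0.05: 2 rose and 14 fell on the left, and 13 were higher and 2 lower on the right.

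The genes whose log2 signals followed each enzyme most closely over the 9 arrays are given as a description, since the arrays share their groups. For Ptgs2 they were Gpbp1, Mcoln2 and Htra4, with Pearson r of 0.957, 0.950 and 0.950. For Ptges they were Cab39l, Tnfsf8 and Pi4k2b (r = 0.981, 0.969 and 0.967). Pla2g4a was followed by Shisal2b, Hmgn5 and Ccnyl1 (r = 0.967, 0.926 and 0.919). Tbxas1 was followed by Nr2c2, Nop10 and Mta3 (r = 0.988, 0.987 and 0.986), and Alox5 by Slc35g1, Zfp64 and Tspan18 (r = 0.992, 0.979 and 0.975). The closest to Alox5ap were Bmp2k, Qdpr and Syk (r = 0.964, 0.963 and 0.959), and to Ltc4s Mrpl3, Slc29a2 and Tmx2 (r = 0.974, 0.960 and 0.942). Hpgds was followed by Cpsf4, Serp1 and Pias3 (r = 0.938, 0.938 and 0.935).

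Mast cells also make leukotriene C4 and prostaglandin D2. Their 10 markers summed to 474 to 808 units in the knockout with DNA, 1747 to 3491 in WT with DNA and 760 to 1430 in WT media. Without Hdc, the histidine decarboxylase, the other 9 summed to 463 to 750 units in the knockout, 772 to 1441 in WT with DNA and 753 to 1307 in media, and WT with DNA overlapped media. Of the 7 mast cell markers tested 1 rose with DNA in WT cells (Hdc) and 3 were lower in the knockout (Hdc, Fcer1a and Cpa3). Of the 10, 3 lay below the array median on every array, Cma1, Mcpt4 and Tpsb2. Marker calls here and below stand beside 9.94% of all genes called higher and 23.6% lower in WT cells with DNA. For the knockout against WT with DNA the shares were 21.8% higher and 9.73% lower. Platelets are rich in thromboxane synthase, and their 5 markers summed to 33156 to 44310 units in the knockout, 36498 to 45931 in WT with DNA and 39402 to 44531 in media. Pf4 and Ppbp made up nearly all of these sums, with group means of 15123 to 25684 units. The means of Itga2b, Gp9 and Gp1bb were 36.5 to 357 units. Of the 5 platelet markers Itga2b rose with DNA in WT cells and was lower in the knockout. Neutrophil markers summed to 35008 to 41848 units in the knockout, 24905 to 91292 in WT with DNA and 17150 to 71228 in media, with Mpo lower in the knockout against WT with DNA. The 4 eosinophil markers summed to 984 to 4212 units in the knockout, 995 to 12117 in WT with DNA and 1101 to 8518 in media. Of these Siglecf fell in WT cells, by 1.11 on the log2 scale, and was higher in the knockout by 1.27 (limma adjusted p = 0.025 and 0.014). Prg2 and Epx differed with the opposite signs and were not called in either comparison (limma adjusted p from 0.16 to 0.71). Mean Prg2 was 1148 units in the knockout, 4591 in WT with DNA and 2884 in media. Mean Epx was 164, 490 and 284 units in the same order. Ccr3 did not pass the filter. The 2 basophil markers summed to 123 to 267 units in the knockout, 308 to 618 in WT with DNA and 159 to 422 in media, and Mcpt8 was lower in the knockout, at -1.70 (adjusted p = 0.047). The 11 dendritic cell and macrophage markers summed to 87589 to 110683 units in the knockout, 111231 to 134782 in WT with DNA and 99788 to 120102 in media. Of these Ccr7 rose in WT cells by 1.201 and Lyz2 by 0.39 (adjusted p = 0.019 and 0.021), and Mertk and Lyz2 were lower in the knockout, at -1.65 and -0.37 (adjusted p = 0.042 and 0.026). The T, NK and B cell markers summed to at most 192 units on any array, and the 1 tested, Cd79a, was not called. The part of these cells in the differences of the enzymes was not tested.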

How the data were processed

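Total RNA of 9 samples was labelled with biotin and hybridised to 1 Affymetrix mouse array each, from 6 ug of RNA. The deposited values are linear signal intensities made with MAS5, per the submitters' processing notes, with the version and genome build not given in the sources used here. Each array had a mean of 500.0 between its 2nd and 98th percentiles, so arrays had been scaled alike. No detection calls were used, and the number of arrays limits the precision.

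Of 45101 probe sets, 64 controls were removed. Of the rest 34945 carried 1 gene symbol in the platform annotation, 932 several and 9160 none, and only the first were named. Signals were analysed as log2(signal + 16), so folds of dim genes are understated. Probe sets with a mean above the 40 percentile were kept (27022), and the one with the highest mean stood for each of 12586 genes. limma 3.58.1 in R 4.3.3 (lmFit, eBayes with an intensity trend) was fitted to all 9 arrays. Its 2-sided p-values were adjusted by Benjamini-Hochberg over all genes of a comparison, and called below 0.05. The model was also run on simulated data with independent noise on each array and few genes changed. That run does not bear on arrays matched by number. A fit over 45037 probe sets with no filter served for each probe set.

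Residuals of arrays with the same number correlated at 0.17 to 0.49 over 9 pairs, and of other numbers at -0.42 to 0.14. The numbers, from the titles, were thus taken to pair the arrays, but only the replicate block used this pairing. SEs and p-values of the main fit leave the pairing out. The replicate block, other offsets (64 and 0), no filter, quantile normalization, median centring, no trend, the mean of probe sets, the 6 arrays compared and leaving out arrays were alternatives. Named genes were the 9 members, a fixed set of pathway genes, in each role and comparison the 3 called genes of smallest adjusted p, and per member the 3 genes of highest correlation. Names outside that rule are cell type markers. Members and lists were chosen with earlier results of these data known. Promoters came from RefSeq (GRCm38.p6).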

Additional observations from a re-analysis of the deposited data

How the results depend on the processing

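The number of enzymes called for WT tumor DNA against media was 5, and 3 without the variance trend. Pla2g4a and Alox5 then lay just above the cut (limma adjusted p = 0.059 and 0.0502). Over all genes 33.6% were called, and 31.6% without the trend. The number of enzymes was 2 to 5 when arrays were left out. Without array number 3 it was 2, Tbxas1 and Ltc4s, where 11.9% of all genes were called. For knockout against WT with DNA the number was 4, and 1 to 5 when arrays were left out. Without array number 3 only Ltc4s was called there, where 11% of all genes were called. Ptgs2, Ptges, Tbxas1 and Alox5 were then not called (limma adjusted p from 0.052 to 0.25). Other pathway genes called were 16 (6 to 15 with arrays left out, the fewest without number 3) and 15 (6 to 16), and 9 with quantile normalization in the second comparison. Of all genes, 11.9% to 33.4% and 11% to 31.4% were called with arrays left out. With quantile normalization 27.8% of all genes were called in the second comparison. For the knockout with DNA against WT media the count of 0 pathway genes became 1 with the replicate block or without number 1. It was 0 to 1 with arrays left out. That gene was Cyp4f18 (limma adjusted p = 0.0093 and 0.024), named after its value was seen. In these 2 settings 1.4% and 0.572% of all genes were called. The replicate block otherwise changed only the calls of Ltc4s and Cbr1 given above, among the members and named pathway genes.

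Centring on the median of the genes tested was added after the data were seen. With it the median gene of WT tumor DNA against media was 0.24, where it was -0.20, and the split of 1251 higher and 2973 lower genes became 2759 and 1080. For knockout against WT with DNA the split of 2746 higher and 1224 lower became 1092 and 2492. Signs turned for Alox5ap (0.17, -0.15 and, against media, 0.025), Cysltr1 (0.21), Alox15 (0.36), Abcc1 (0.37) and Alox5 in the knockout against media (0.011). The WT difference of Alox15 also turned with an offset of 64 (0.0034) and with quantile normalization (0.037). None of these was called before or after.

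Leaving out arrays turned uncalled values only. In knockout against WT media the ranges were -0.56 to 0.47 for Ptges, -0.57 to 0.27 for Hpgds, -0.21 to 0.25 for Alox5 and -0.048 to 0.041 for Alox5ap. In WT tumor DNA against media they were -0.24 to 0.083 for Abcc1, -1.05 to 1.13 for Alox15 and -0.60 to 0.13 for Cysltr1. In knockout against WT with DNA they were -1.77 to 0.41 for Alox15 and -0.57 to 0.16 for Cysltr1. The filter and probe set of a gene were kept from all 9 arrays there. Signals near background limit Hpgds, Ltc4s, Pla2g4c and the dimmer Ptgs2 probe set.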
